A study of Citrullus lanatus with 12 samples.

Results

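Anthers of watermelon (Citrullus lanatus) at the mononuclear stage were compared with anthers at the tetrad stage by RNA sequencing, across all genes of the deposited table. The comparison used 6 of the 12 libraries of the series, 3 labelled mononuclear and 3 labelled tetrad, chosen by the stage in their labels and not by any measured value. The buds came from the progeny of the variety Xinteda Zhengkang 9 grown in a greenhouse. Each anther was staged under the microscope on a part of its tissue and the RNA came from the rest. No treatment or allele is named in the labels, and both groups share the same plant material. The other 6 libraries, 3 of the dikaryophase and 3 of the mature stage, entered the estimate of the spread and are used below only to follow the genes that changed. Nothing in the labels says that the 3 libraries of a stage are separate plants. The p-values therefore measure the spread between these samples, which may be technical.

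In a tetrad the products of meiosis are still enclosed together in a wall of callose. The tapetum, the innermost layer of the anther wall, secretes the enzyme that dissolves this callose and sets the microspores free, and it then supplies them with precursors of sporopollenin, the polymer of the outer pollen wall. At the mononuclear stage the free microspores enlarge and build that wall, before the asymmetric mitosis that gives a vegetative and a generative cell. An anther sample holds the microspores, the tapetum and the outer wall together, and fewer cells of a type cannot be told apart here from less RNA per cell. The files give gene IDs without names or descriptions, so no function is assigned to any gene below, and the labelled tissue and stage were not checked against marker genes.

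The libraries held 58079967 to 65554998 reads assigned to genes at the mononuclear stage and 60408856 to 63254563 at the tetrad stage, so that 1 CPM (counts per 1000000 reads of the library) stood for 58.1 to 65.6 reads. The mononuclear libraries were less alike than the tetrad ones. Over the 17484 genes tested, the Pearson correlation of log2 levels between libraries was 0.948 to 0.965 among mononuclear libraries, 0.983 to 0.985 among tetrad libraries and 0.882 to 0.901 between the stages. The median SD of a gene's log2 level over the 3 libraries was 0.21 in mononuclear and 0.12 in tetrad anthers. By the median absolute log2 difference over all tested genes, mononuclear replicate 3 lay farthest from the rest. This difference was 0.28 and 0.26 to mononuclear replicates 1 and 2, against 0.18 between those. To the tetrad libraries it was 0.33 to 0.36, against 0.24 to 0.28 for the other mononuclear libraries. By correlation, replicate 2 was the least like its own stage, at 0.956 with replicate 1 and 0.948 with replicate 3, against 0.965 between those. Replicate 3 correlated least with the tetrad libraries, at 0.882 to 0.886. Mononuclear replicate 2 stood apart from the other mononuclear libraries in the genes that changed, as described near the end, and the results it moves are given with and without it.

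Of the 17484 genes, 869 rose and 702 fell in mononuclear relative to tetrad anthers by at least 2-fold with a limma adjusted p (Benjamini-Hochberg) under 0.05. These 1571 genes made up 8.99% of those tested, with 4.97% higher and 4.02% lower. The bulk of the distribution was narrow and even. The middle 50% of all log2 fold changes lay between -0.24 and 0.22, with a median of -0.01. The tails were not even: the 1st and 5th percentiles were -2.71 and -1.06, while the 95th and 99th were 1.28 and 4.23. Scaling by library size alone lowered the median of all genes to -0.14, and it turned the majority of rises round, with 784 genes higher and 908 lower (46.3% of the calls higher, against 55.3% with the deposited scaling). Without mononuclear replicate 2, 859 genes were higher and 825 lower (51.0% of the calls higher). With limma-voom on the recovered reads, which kept the deposited scaling, 744 genes were higher and 750 lower (49.8% of the calls higher). Which direction held the more genes therefore depended on the scaling and on the model, and the size of the majority also on that library. The excess of rises among changes of 32-fold or more held under each scaling run.

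**Figure D1:**
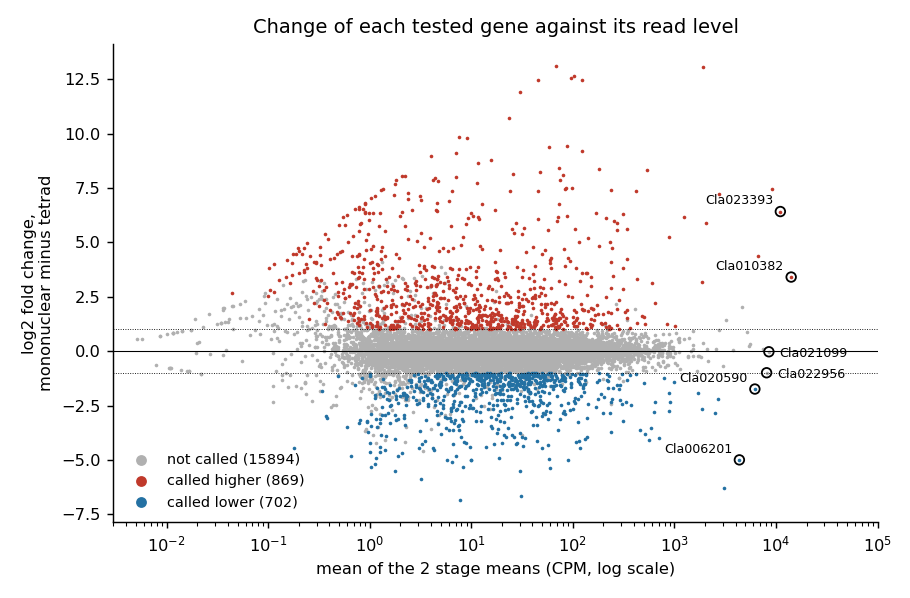
Log2 fold change of each tested gene (y axis, mononuclear minus tetrad) against the mean of its 2 stage means in CPM (x axis, log scale), with called genes coloured, the 6 genes named in the text circled, and dotted lines at 2-fold; 19 tested genes with no read in either stage are not drawn. The 869 rises reach far above the axis across read levels, and few of the 702 falls lie as far below it.

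Called changes under 4-fold were slightly more often falls, and those of 32-fold or more were mostly rises. Among called genes with a change of 2-fold to 4-fold, 390 rose and 427 fell. Between 4-fold and 8-fold there were 170 rises and 150 falls, and between 8-fold and 32-fold 182 rises and 112 falls. At 32-fold or more, 127 genes rose (0.726% of those tested) and 13 fell (0.0744%). The number of large falls depended on mononuclear replicate 2: without it 39 genes fell and 122 rose by 32-fold or more, and between 4-fold and 8-fold 161 rose and 179 fell, a class in which falls also outnumbered rises with library size as the scaling (158 rises and 179 falls) and with limma-voom on the recovered reads (139 and 171). Without mononuclear replicate 1, the falls of 8-fold to 32-fold numbered 73. Scaled by library size alone, the changes of at least 32-fold were 122 rises and 18 falls, and with limma-voom on the recovered reads they were 130 and 18. With quantile normalisation they were 97 and 16, while the class of 8-fold to 32-fold was nearly even at 131 rises and 125 falls and the class of 4-fold to 8-fold turned round, with 152 rises and 162 falls. A filter of 5 CPM left 121 rises of 8-fold to 32-fold. Below the 2-fold threshold, a further 1579 genes passed the adjusted p, 714 of them higher and 865 lower in mononuclear anthers. The counts of these smaller changes depended on each tetrad library: they were 342 and 451 without tetrad replicate 1, 380 and 474 without tetrad replicate 2, and 408 and 541 without tetrad replicate 3. They also followed the scaling, at 394 higher and 1471 lower with library size only.

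**Figure D2:**
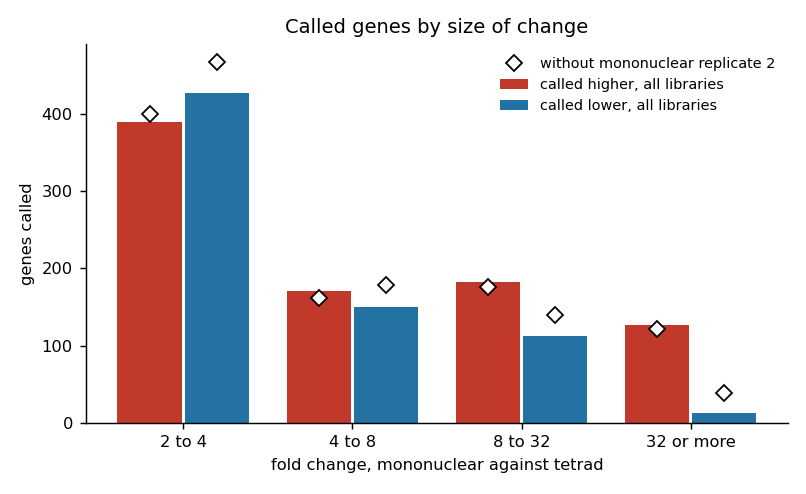
Number of genes called (y axis) by size of the fold change between mononuclear and tetrad anthers (x axis), as bars for genes called higher and lower over all libraries and as diamonds for the same counts without mononuclear replicate 2. The bar of falls exceeds that of rises only in the class of 2-fold to 4-fold, and in the class of 32-fold or more 127 rises stand beside 13 falls, or 122 beside 39 without that library.

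Rising genes came from low read levels, and most falling genes still averaged at least 1 CPM in mononuclear anthers. The 869 genes that rose had a median level of 13.8 CPM in mononuclear anthers and 2.47 CPM in tetrad anthers, and 69 of them in mononuclear and 314 in tetrad anthers averaged under 1 CPM. The 702 genes that fell had a median of 7.24 CPM in mononuclear and 27.8 CPM in tetrad anthers, and 104 of them averaged under 1 CPM in mononuclear and 5 in tetrad anthers. The median over all tested genes was 20.1 CPM in mononuclear and 22.3 CPM in tetrad libraries. Under 1 CPM were 4.68% of all tested genes in mononuclear and 5.12% in tetrad anthers. For the risen genes these shares were 7.94% and 36.1%, and for the fallen genes 14.8% and 0.712%. These levels count reads and are not scaled by gene length, so they compare stages for the same genes and do not rank genes by transcript number. Since the genes were chosen for their change between these same libraries, the levels describe them and add no evidence.

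The share called is given by class of read level, set by the mean over the same 6 libraries. Of 9972 genes with a mean of 10 to 100 CPM over the 6 libraries, 310 rose and 361 fell, which is 6.73% called. Of 2066 genes between 100 and 1000 CPM, 92 rose and 76 fell (8.13%). Above 1000 CPM, 10 of 55 genes rose and 7 fell (30.9%), and the median absolute log2 fold change there was 0.65, against 0.20 for the class of 10 to 100 CPM. A changed gene can enter this top class through 1 stage alone. Of all risen genes, 15 averaged 1000 CPM or more in mononuclear anthers and 1 in tetrad anthers. Of all fallen genes, 2 did so in mononuclear and 17 in tetrad anthers. The share and the median of the top class are therefore set in part by how the classes were formed. At lower levels, 324 genes rose and 244 fell among 4682 with 1 to 10 CPM (12.1%), and 133 rose and 14 fell among 709 under 1 CPM (20.7%). The lowest class holds only genes that reached 1 CPM in at least 3 of the 12 libraries, so a gene enters it through a stage where it is high, and its share called is set in part by this filter and is not compared with the other classes. Without the filter 263 genes rose and 77 fell in it, and with a filter of 5 CPM 36 and 2. Its 14 falls depended on single libraries, with 7 left without mononuclear replicate 1, 8 without mononuclear replicate 3, 5 without tetrad replicate 1 or 2 and 4 without tetrad replicate 3. With limma-voom the same class held 80 rises and 9 falls, with quantile normalisation 57 and 27, and a pseudocount of 0.1 left 7 falls.

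The genes that rose took up a large part of the mononuclear libraries. Together they held 14.8%, 13.6% and 17.7% of all reads in mononuclear replicates 1, 2 and 3, against 1.54%, 2.02% and 1.84% in tetrad replicates 1, 2 and 3. The genes that fell held 1.48%, 3.01% and 1.60% of the reads in the mononuclear replicates and 9.44%, 10.0% and 8.53% in the tetrad replicates. Neither sum overlapped between the stages, which the choice of genes fixes. Mononuclear replicate 2 had the lowest share of the rising genes and the highest share of the falling genes among the mononuclear libraries.

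The gain in reads lay in very few genes. The 869 genes gained 13.6% of the library between tetrad and mononuclear anthers, in mean CPM, and the 4 with the largest gain were enough to reach 50% of it. The 702 genes that fell lost 7.30% of the library, and 11 genes were enough to reach 50% of that. Summed over all tested genes, the gains came to 18.9% of the library and the losses equalled them, as they must when levels are shares of a total. The called rises held 71.9% of all gains, but the called falls only 38.7% of all losses. The remaining losses lay in genes that were not called, whose joint share was 83.7%, 83.3% and 80.7% in the mononuclear replicates and 89.0%, 87.9% and 89.6% in the tetrad replicates. These sums count CPM, under which the median log2 fold change of all genes was -0.14, against -0.01 with the deposited scaling behind the calls. When a few genes gain reads, the shares of unchanged genes fall, so the 2 percentages do not show how many genes declined.

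**Figure D3:**
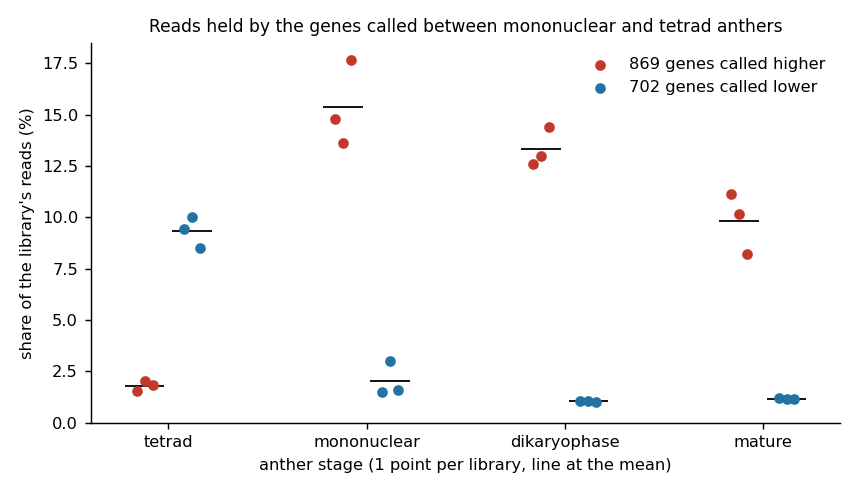
Share of each library's reads (y axis, percent) held by the 869 genes called higher and the 702 genes called lower in mononuclear relative to tetrad anthers, for the 3 libraries of each of the 4 stages (x axis), with a line at the mean. The risen genes sit at 13.6% to 17.7% in mononuclear libraries and keep 8.22% or more at maturity, and the fallen genes hold 1.03% to 1.20% after the mononuclear stage.

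Of the called genes, the pair with the largest gain and the pair with the largest loss in mean CPM are described by ID. Cla010382 was the gene with the most reads in mononuclear anthers, at 21238, 22319 and 32682 CPM in replicates 1, 2 and 3, against 1492, 3923 and 2924 CPM in the tetrad replicates. All its mononuclear values lay above all its tetrad values. Its log2 fold change was 3.41 ± 0.51 (SE from the spread pooled over the 4 stages, n = 3 per stage, limma adjusted p = 0.000675). Cla023393 had 21347, 18605 and 25181 CPM in mononuclear replicates 1, 2 and 3, and 91.3, 521 and 443 CPM in the tetrad replicates. Here the stages were further apart, and tetrad replicate 1 lay well below the other tetrad libraries. The log2 fold change was 6.42 ± 0.54 (limma adjusted p = 1.01e-05), and 5.61 ± 0.31 without tetrad replicate 1. By mean CPM among all genes, Cla023393 ranked 2 in mononuclear and 312 in tetrad anthers, and Cla010382 ranked 1 in mononuclear and 15 in tetrad anthers.

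Cla006201 showed the largest loss of reads. It had 152, 710 and 128 CPM in mononuclear replicates 1, 2 and 3, against 8100, 8162 and 8899 CPM in the tetrad replicates. The tetrad libraries agreed closely, while mononuclear replicate 2 held several times the level of the other mononuclear libraries. The log2 fold change was -4.99 ± 0.57 (limma adjusted p = 0.000106), and -5.77 ± 0.40 without mononuclear replicate 2. Cla020590 lost the next most, with 2344, 4017 and 1907 CPM in mononuclear replicates 1, 2 and 3 and 9179, 10755 and 8949 CPM in the tetrad replicates. It was still the gene with the 19th highest mean in mononuclear anthers, and its stages did not overlap. Its log2 fold change was -1.74 ± 0.41 (limma adjusted p = 0.0121). That call was lost without mononuclear replicate 3 (-1.54 ± 0.46, limma adjusted p = 0.0513) and without tetrad replicate 2 (-1.64 ± 0.48, limma adjusted p = 0.0503). Quantile normalisation moved the log2 fold change to -2.67 ± 0.41 (limma adjusted p = 0.000820). Over 15 alternatives the log2 fold change ran from -2.67 to -1.54 and the adjusted p from 0.000820 to 0.0513.

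Abundant genes that were not called included one whose stages overlapped and one just short of the fold threshold. Cla021099 had 6675, 8252 and 9043 CPM in mononuclear replicates 1, 2 and 3, against 8951, 11154 and 6959 CPM in the tetrad replicates, and the stages overlapped. Its log2 fold change was -0.02 ± 0.44 (limma adjusted p = 0.983), with a 95% interval from -0.99 to 0.94, so that a change of up to nearly 2-fold in either direction is compatible with these libraries. Quantile normalisation gave -0.70 ± 0.50 (limma adjusted p = 0.409). Cla022956, the gene with the most reads in tetrad anthers, had 3376, 7405 and 4900 CPM in mononuclear replicates 1, 2 and 3, and 10082, 13042 and 9657 CPM in the tetrad replicates. All mononuclear values lay below all tetrad values, and the log2 fold change of -0.99 ± 0.28 passed the adjusted p (limma, 0.0316) but not the 2-fold threshold. It met both thresholds without mononuclear replicate 2 (-1.27 ± 0.27, limma adjusted p = 0.00775), with scaling by library size alone (-1.12 ± 0.28, limma adjusted p = 0.0149) and with quantile normalisation (-2.71 ± 0.22). It passed 2-fold but not the adjusted p without mononuclear replicate 3 (-1.01, limma adjusted p = 0.0713), without tetrad replicate 1 (-1.05, limma adjusted p = 0.0672) and without tetrad replicate 3 (-1.08, limma adjusted p = 0.0535). Over the 15 alternatives its adjusted p ran from 8.89e-06 to 0.144, the highest with the 6 libraries fitted alone.

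**Figure D4:**
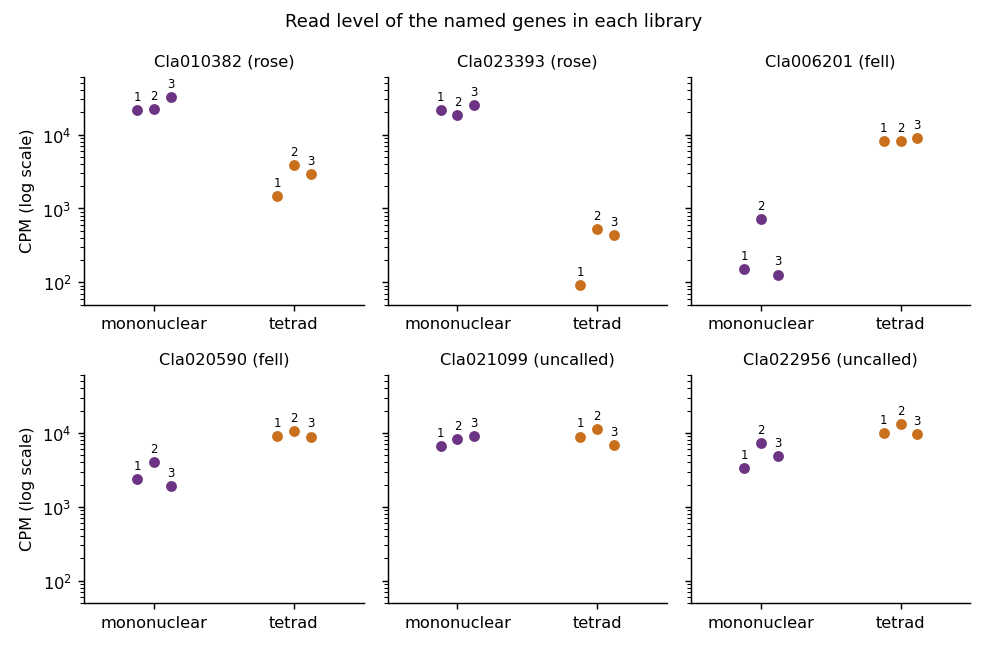
Level in CPM (y axis, log scale) of the 6 named genes in the mononuclear and tetrad libraries, 1 point per library with its replicate number above it. The stages are apart for all but Cla021099, and mononuclear replicate 2 is the highest mononuclear library for Cla006201, Cla020590 and Cla022956.

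Most genes were held within 2-fold. For 12571 genes (71.9% of those tested) the 95% interval of the fold change lay entirely within 2-fold in either direction, 921 of which passed the adjusted p as small changes. Another 3342 genes (19.1%) were neither called nor bounded in this way, and for these the libraries do not settle whether a 2-fold change took place. Among them were 500 genes with an estimated change of at least 2-fold but an adjusted p of 0.05 or more, 252 higher and 248 lower in mononuclear anthers. The libraries of the 2 stages did not overlap in 6619 genes (37.9%), 3303 with all mononuclear libraries above and 3316 with all below the tetrad libraries. Among the 15913 genes not called, 5064 (31.8%) were so separated. With library size as the only scaling, 7368 of the tested genes were separated. With 3 libraries a side, a gene without any difference is separated with a probability of 0.1.

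Some genes came on between the stages, and none of the table's genes went off by the same rule. Of 23440 genes, 17 (0.0725%) were without a single tetrad read and had at least 1 CPM in each mononuclear library. All 17 were among the genes called higher, which this rule makes nearly certain. Their mean level in mononuclear anthers was 1.43 to 137 CPM with a median of 3.65 CPM. With 3 reads over the 3 tetrad libraries taken as the floor, they were at least 87.9-fold to at least 8416-fold higher in mononuclear anthers. Such bounds cover counting error only. Single tetrad libraries held the remaining reads of further genes, since leaving out tetrad replicate 1 gave 27 genes by this rule, tetrad replicate 2 gave 21 and tetrad replicate 3 gave 22. In the opposite direction 0 genes had at least 1 CPM in each tetrad library and no read in any mononuclear library, and 3 did without mononuclear replicate 2. With up to 3 reads allowed in each library of the stage without signal, the counts were 20 genes on in mononuclear and 0 on in tetrad anthers.

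The genes that fell did so to different extents in the 3 mononuclear libraries. Mononuclear replicate 2 held the highest mononuclear level in 523 of the 702 fallen genes (74.5%), mononuclear replicate 3 in 108 and mononuclear replicate 1 in 71, while over all tested genes replicate 2 was highest in 30.9%. In these genes replicate 2 lay a median of 0.40 above the mean of its stage on the log2 scale, replicate 1 lay -0.27 and replicate 3 lay -0.11 from it. Among the 869 genes that rose the shift between libraries was smaller: mononuclear replicate 3 was highest in 445 (51.2%) and replicate 2 lowest in 385 (44.3%), with median deviations of 0.14 and -0.09. The tetrad libraries had median deviations between -0.07 and 0.08 in either list, but single genes spread more widely than that. In the risen genes the median SD of the log2 level was 0.39 over the mononuclear and 0.30 over the tetrad libraries, against 0.21 and 0.12 over all tested genes. The 5th to 95th percentile of the deviation there ran from -1.06 to 0.81 in tetrad replicate 1 and from -0.83 to 1.14 in tetrad replicate 2. These ranges were wider than those of mononuclear replicates 1 (-0.88 to 0.50), 2 (-0.84 to 0.88) and 3 (-0.72 to 0.87). In the fallen genes the median SD was 0.50 in mononuclear and 0.20 in tetrad anthers, and tetrad replicate 2 was the highest tetrad library in 52.0% and tetrad replicate 3 the lowest in 52.6%.

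**Figure D5:**
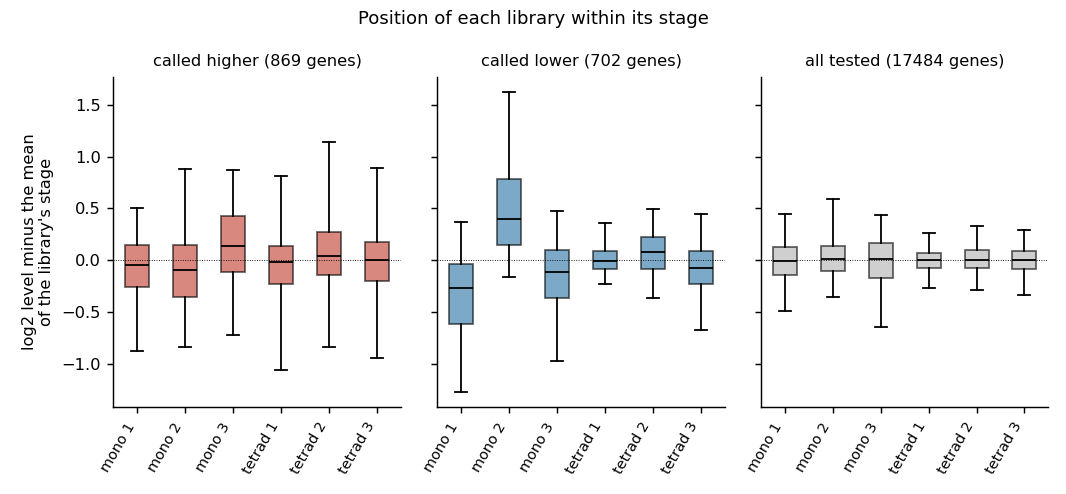
Log2 level of a gene in each library minus the mean of the library's stage (y axis), for genes called higher, genes called lower and all tested genes; boxes show the median and quartiles and whiskers the 5th and 95th percentiles, with mono for mononuclear. Mononuclear replicate 2 lies above its stage in the 702 genes called lower, with a median of 0.40, and near 0 over all tested genes.

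Mononuclear replicate 2 also held more reads than its fellow libraries of genes of both neighbouring stages. Taking genes with at least 500 normalised reads in every tetrad library and at least 10-fold fewer in both other mononuclear libraries, a rule set after the values were seen, 51 genes qualified, and replicate 2 exceeded both others in 47 of them. Its median level was 13.5% of the tetrad mean, against 4.49% for the higher of the other mononuclear libraries. With mononuclear replicate 1 or 3 in its place, 21 genes qualified each time and 4 were above both others. With the dikaryophase as the neighbouring stage, 128 genes qualified for replicate 2, and it exceeded both others in 122, at a median of 10.4% of the dikaryophase mean against 0.363%. There, 41 genes qualified for replicate 1 and for replicate 3, which exceeded both others in 1 and 2 of them. Whether its anthers covered a wider span of development was not tested.

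After the mononuclear stage most genes that had fallen stayed below their tetrad level, and those that had risen split. The median log2 level of the 702 fallen genes stood at 10.70 in tetrad anthers, 8.81 in mononuclear anthers, 8.41 at the dikaryophase and 8.36 at maturity. For the 869 risen genes it was 7.16, 9.74, 10.05 and 9.63 over the same stages, while the median over all tested genes moved only between 10.36 and 10.41. Of the risen genes, 376 (43.3%) had their highest mean in mononuclear anthers, 246 (28.3%) in dikaryophase and 247 (28.4%) in mature anthers. Of the fallen genes, 651 (92.7%) were highest at the tetrad stage, 49 (6.98%) at maturity and 2 (0.285%) at the dikaryophase, and 158 (22.5%) had their lowest mean at the mononuclear stage. Since the mononuclear and tetrad libraries chose these genes, such counts describe them only.

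The later step from dikaryophase to maturity shares no library with the comparison of mononuclear and tetrad anthers. Of the 869 risen genes, 53 were higher at maturity (6.10%, against 1.93% of all tested genes) and 226 were lower (26.0%, against 3.01%) than at the dikaryophase, by the same thresholds. Of the 702 fallen genes, 35 were higher (4.99%) and 43 lower (6.13%) at maturity. Without tetrad replicate 1, 24 of 585 fallen genes were higher and 24 lower. Without tetrad replicate 2, 24 of 556 were higher and 25 lower. The median log2 fold change of mature over dikaryophase was -0.48 for the risen genes, 0.02 for the fallen genes and 0.01 over all tested genes. Both comparisons take the spread of a gene from the same fit. With each pair of stages fitted alone, 52 of 848 risen genes were higher at maturity (6.13%, against 2.17% of all tested genes) and 210 were lower (24.8%, against 2.37%). Of 721 fallen genes in those fits, 31 were higher (4.30%) and 29 lower (4.02%), so that the larger number of lower genes seen with the joint fit was not kept.

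The named genes illustrate these courses. Cla010382 had 9916, 3639 and 5663 CPM in dikaryophase replicates 1, 2 and 3 and 140, 65.4 and 253 CPM in mature replicates 1, 2 and 3, a log2 fold change of -5.46 ± 0.51 for mature over dikaryophase (limma adjusted p = 0.000143). Cla023393 kept 17668, 15598 and 18046 CPM at the dikaryophase and 11748, 12854 and 7460 CPM at maturity, a step that did not pass the test (log2 fold change -0.70 ± 0.54, limma adjusted p = 0.458). Cla006201 was down to 2.59 to 8.98 CPM at the dikaryophase and 4.25 to 5.78 CPM at maturity. Cla020590 had 205 to 524 CPM at the dikaryophase and 16.4 to 51.3 CPM at maturity, a lower mean at each step of the series.

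Reads were concentrated in fewer genes in the mononuclear libraries than in the tetrad ones. The 10 genes with the most reads in a library held 11.2%, 11.4% and 13.6% of it in mononuclear replicates 1, 2 and 3, against 6.83%, 7.81% and 6.78% in tetrad replicates 1, 2 and 3. It took 1102, 1053 and 900 genes to reach 50% of the reads in the mononuclear replicates and 1342, 1250 and 1361 in the tetrad replicates. Neither measure overlapped between the stages. The number of genes at or above 1 CPM was 16574, 16753 and 16514 in the mononuclear replicates and 16615, 16588 and 16584 in the tetrad replicates, which overlap, with mononuclear replicate 2 highest. Two-sided exact permutation tests over the 20 groupings gave p = 0.1, 0.1 and 1 for these measures, and 0.15, 0.15 and 1 after Benjamini-Hochberg adjustment over the 3. The smallest p that 3 against 3 libraries allow is 0.1, so none could pass a threshold of 0.05. More genes had at least 1 read in the mononuclear libraries (19086, 19180 and 18987) than in the tetrad ones (18787, 18797 and 18797), and fewer reached 10 CPM (11757, 11897 and 11443 in mononuclear against 12179, 12053 and 12144 in tetrad libraries). CPM scales by library size alone, under which the median log2 fold change of all genes was -0.14, against -0.01 with the deposited scaling. The count at 10 CPM therefore depends on that scaling.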

How the data were processed

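The authors deposited a table of log2 values for 23440 gene IDs in 12 libraries, and every column matched a library title. No label or header names the aligner, counter, genome build, annotation or strand setting, so reads of near-identical or overlapping genes may be split between them. In the deposited log2 values, 2 to the power of the value, less 1, was a whole multiple of a step per library for 100% of values within 0.01 reads, so they are log2 of reads divided by a library factor (0.887 to 1.07), plus a pseudocount of 1. Reads and CPM were recovered from them.

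The test covered genes that reached 1 CPM in 3 or more libraries (17484, at least 99.9% of each library's reads). The values were fitted with limma 3.58.1 in R 4.3.3 (a mean per stage, 8 residual degrees of freedom, trended variances, Benjamini-Hochberg adjustment), which suits log2 values; genes were called at adjusted p under 0.05 and at least 2-fold. The code was tested on simulated data. Fold changes on the log2(value + 1) scale understate the change of genes with few reads.

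The named genes are the 2 called genes with the largest gain and the 2 with the largest loss in mean CPM, and the 2 uncalled genes with the highest mean CPM. Marker and pathway lists rest on gene names, which the files do not pair with the IDs, so none was computed. The comparison, the rule for naming genes and the thresholds were chosen with earlier results of these data known. Alternatives were limma-voom on recovered reads, other scalings, filters, pseudocounts, thresholds, a fit of the 6 libraries alone, a replicate block, and leaving out each of the 6 libraries.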

Additional observations from a re-analysis of the deposited data

How the results depend on the processing

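None of the 1571 called genes changed sign in any of the 15 alternative fits that tested it. Leaving out each of the 6 libraries in turn gave 1349 to 1684 genes called, 788 to 859 higher and 556 to 825 lower. The percentage of called genes that were higher was 55.3% (Wilson 95% interval 52.8% to 57.8%). This interval takes the genes as independent, which genes measured in the same libraries are not, so it does not measure the uncertainty of the comparison. The percentage moved to 49.8% with limma-voom, 46.3% with scaling by library size and 51.3% with quantile normalisation. It was 50.3% with adjusted p alone and 63.5% with a 4-fold threshold. With libraries left out it ran from 51.0% (without mononuclear replicate 2) to 58.8%. The cause was not tested. With adjusted p alone 3150 genes were called, 1583 higher and 1567 lower, and the 4-fold threshold left 754, 479 and 275.

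With adjusted p alone, 133 of 1583 risen genes were higher and 351 lower at maturity. At 4-fold, 7 of 479 were higher and 102 lower, and with an adjusted p under 0.01, 16 of 702 were higher and 153 lower. With adjusted p alone, 86 of 1567 fallen genes were higher and 145 lower. With an adjusted p under 0.01, 14 of 530 were higher and 10 lower, and at 4-fold 6 of 275 were higher and 8 lower. With quantile normalisation 56 of 708 fallen genes were higher. With libraries left out, 24 to 52 of 556 to 825 fallen genes were higher and 24 to 47 lower. The shares of all tested genes at these settings are not given here, so these counts show no excess or lack. The difference in the number of genes at 1 CPM (18 more in mononuclear libraries) ranged from -51.7 (without mononuclear replicate 2) to 67.8 with libraries left out, and was -426 at 10 CPM.

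The labels do not say what the replicate number marks. Deviations from the stage mean correlated at 0.03, 0.04 and -0.01 between same-numbered libraries of the 2 stages. Between differently numbered ones they correlated at -0.06 to 0.04. With 3 libraries per stage, this does not settle whether same-numbered libraries share a plant or a day. With the replicate block 1582 genes were called, 878 higher and 704 lower, and 856 of the rises and 685 of the falls were kept. Depth limits the genes under 1 CPM most, where 1 CPM stood for as few as 58.1 reads.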
